A study of Gasterosteus aculeatus with 12 samples.

Results

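The regions described here are 882 wide peaks of accessible chromatin in the interior of 17 stickleback autosomes. They were selected on their width, at least 2500 bp, among 15539 peaks on chromosomes I to XXI other than IV, XI, XIX and XXI whose summits lay more than 2 Mb from both chromosome ends. Wide peaks were thus 5.68% of the peaks there (95% Wilson interval 5.32% to 6.05%), and the other 14657 peaks of the same regions are the comparison. The whole list held 35808 peaks and 2204 peaks of this width, of which 431 were on unplaced scaffolds, 323 on the 4 chromosomes left out (among them XIX, the sex chromosome) and 568 in the outer 2 Mb of the 17 chromosomes. Because width chose the members and every other value comes from the same list, all values are given as descriptions, with no test.

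The assay was ATACseq on primary spermatocytes sorted by size and complexity from the testes of adult males of wild-derived marine and freshwater strains, taken at the end of the short-day season in which the first round of meiosis runs. There were 3 marine and 3 freshwater pools of 3 males each, and a library of naked DNA accompanied each pool. The authors merged the 6 ATACseq libraries into 1 list of peaks on the genome build gasAcu1. No peak therefore has a value per pool or per strain, and the errors below are SDs over the 17 chromosomes or Wilson intervals, which cover differences along the genome and counting error but not the spread between pools.

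Primary spermatocytes are the male germ cells that replicate their DNA, pair their homologous chromosomes and exchange segments between them before the first meiotic division. In ATACseq the transposase Tn5 inserts sequencing adapters where DNA is not packed tightly on nucleosomes, so open promoters and other regulatory elements gather reads. In vertebrate cells a long accessible stretch often holds a promoter with its open surroundings or several regulatory elements side by side. A peak caller reports such a stretch as a single interval where its signal stays above the background or dips only briefly. The smallest gap between peaks in the list was 151 bp. Genes at the peaks were not analysed here, so whether the wide peaks held promoters or other elements is not given.

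Wide peaks were few but held a larger share of the accessible bases than of the peaks, which follows from their selection on width. They covered 2.87 Mb of the 16.08 Mb under peaks, or 17.9%, and 1.14% of the 251.4 Mb searched. Their median width was 2949 bp, with quartiles of 2708 and 3468 bp, against 748 bp in the other peaks. Most lay close to the limit: 462 (52.4%) were 2500 to 2999 bp wide, 205 were 3000 to 3499 bp, 101 were 3500 to 3999 bp, 73 were 4000 to 4999 bp and 41 (4.65%) were wider still. The 103 peaks of 2500 to 2599 bp had a median fold enrichment of 15.1, and the 147 peaks of 2400 to 2499 bp just below the limit had 13.5, so no step separated them. The members next to the limit were chrXII:15592522-15595021, 2500 bp wide with a fold enrichment of 23.99, and chrII:10097415-10099916, 2502 bp with 17.95. The peaks just under it were chrI:15524733-15527231, 2499 bp wide with 7.48, and 3 peaks of 2498 bp, chrV:9865754-9868251 with 12.3, chrXVII:4955912-4958409 with 17.03 and chrXVII:8051335-8053832 with 11.51.

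Fold enrichment, the ratio of the signal at the summit to the caller's background there, was high in nearly all wide peaks. Their median was 15.3 (quartiles 11.9 and 19.2, range 1.66 to 30.9), against 3.69 in the other peaks (quartiles 2.16 and 9.09, range 1.06 to 32.9). A fold enrichment of at least 5 was reached by 860 of 882 wide peaks (97.5%, Wilson interval 96.3% to 98.4%) and by 6049 of 14657 other peaks (41.3%). The ranges overlapped almost fully, and the highest value of the regions belonged to a narrower peak. Read the other way, the share of wide peaks grew with fold enrichment: 0.0682% of peaks with a fold enrichment of 1 to 2 were wide (2 of 2934), 4.01% at 5 to 10 (119 of 2968), 25.1% at 15 to 20 (279 of 1113) and 39.2% at 25 or more (40 of 102). Most of the strongest peaks were therefore still narrower than 2500 bp, and the median width in that highest class was 2331 bp.

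**Figure D1:**
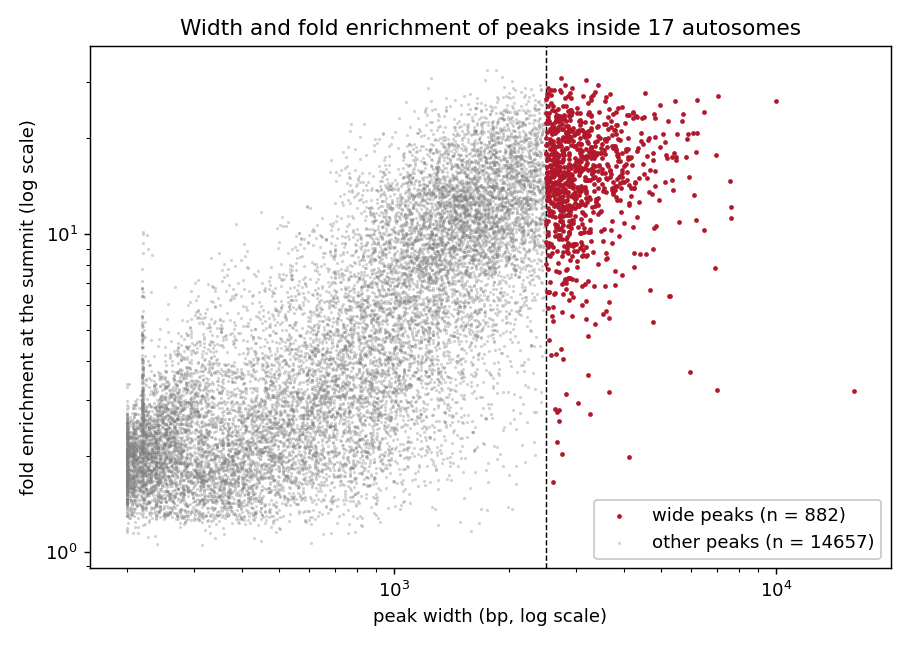
Peak width in bp against fold enrichment at the summit, both on log scales, for each of the 882 wide peaks (red) and 14657 other peaks (grey) inside 17 autosomes; the dashed line is the limit of 2500 bp. Fold enrichment climbs with width left of the line and scatters around 15.3 to its right, with 22 wide peaks under 5 and the widest peak, 16035 bp, at 3.20.

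Beyond the limit, extra width went with little extra fold enrichment. The median was 14.7 in wide peaks of 2500 to 2999 bp, 15.9 at 3000 to 3499 bp, 15.9 at 3500 to 3999 bp, 16.5 at 4000 to 4999 bp and 17.4 in the 41 wider peaks. Across peaks, Spearman's rho between width and fold enrichment was 0.0779 in wide peaks (n = 882), whose widths the rule limits from below, and 0.777 in the other peaks (n = 14657). Peaks share libraries and neighbourhoods and are not independent replicates, so these coefficients only describe the list. The split was made on width itself, and 52.4% of wide peaks were 2500 to 2999 bp wide. The contrast between the coefficients therefore does not show a change at the limit.

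The pattern was alike on every chromosome. The chromosome medians of fold enrichment averaged 15.6 ± 1.17 in wide peaks and 3.75 ± 0.326 in other peaks (SD, n = 17 chromosomes), and the wide peaks were higher on 17 of 17, with the lowest median on chromosome X (13.7) and the highest on chromosome XIV (18.1). Wide peaks numbered 3.48 ± 0.528 per Mb, from 2.86 on chromosome XIII to 4.56 on chromosome I, which also held the most, 110, and the largest share of its peaks as wide, 7.07%. Chromosome V held the fewest, 32, in the shortest interior, 8.25 Mb. The share of accessible bases in wide peaks was 17.7% ± 2.82 by chromosome, lowest on chromosome X (14.0%) and highest on chromosome XVII (22.6%). Their median width varied less, 2987 ± 130 bp.

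**Figure D2:**
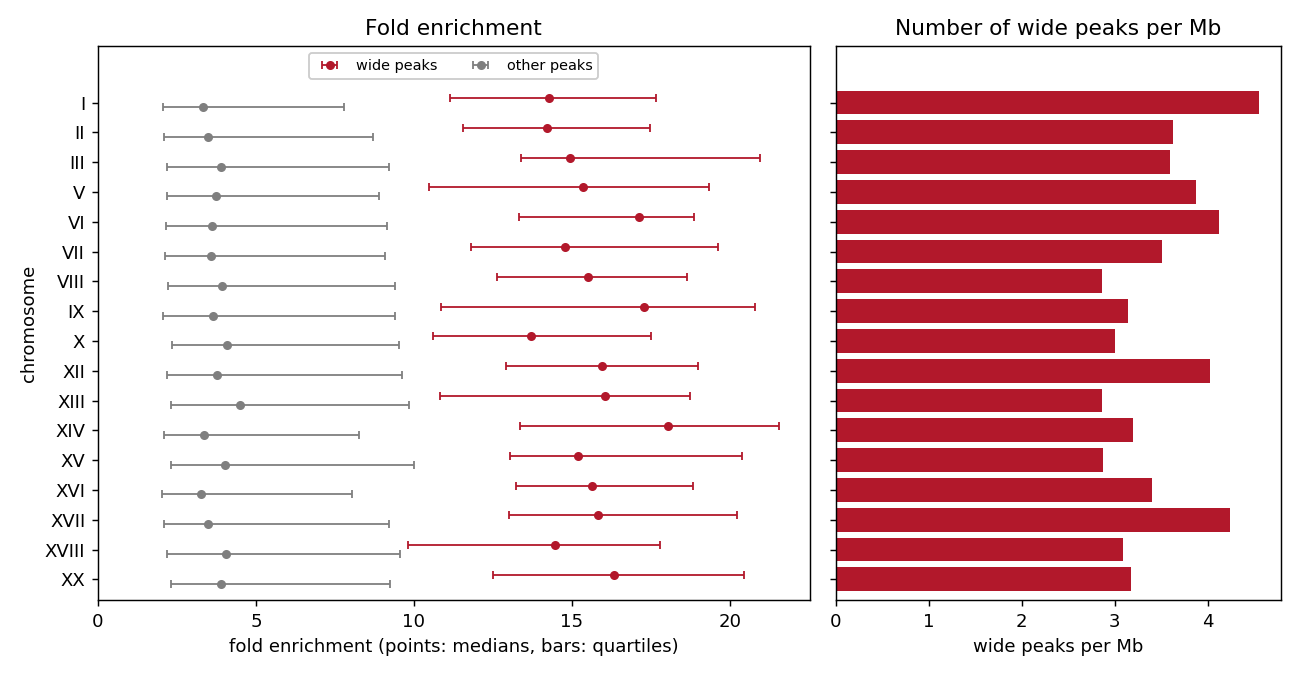
Left, fold enrichment by chromosome for wide peaks (red) and other peaks (grey), as medians with quartile bars; right, wide peaks per Mb of chromosome interior. The medians of wide peaks lie between 13.7 and 18.1 on all 17 chromosomes, and the number per Mb runs between 2.86 and 4.56.

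Within the interiors, the share of wide peaks varied little with distance from the chromosome end. Wide peaks were 6.14% of the peaks 2 to 3 Mb from the nearer end (141 wide peaks, Wilson interval 5.23% to 7.20%). They were 4.99% at 3 to 4 Mb, 5.55% at 4 to 6 Mb and 5.74% at 6 to 8 Mb. From 8 Mb inwards they were 5.84% (190 wide peaks, 5.09% to 6.70%). The intervals overlapped, which is not a test and does not show equal shares. The median fold enrichment of wide peaks stayed between 14.5 and 16.2 in these zones, with no order along the distance.

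The reads behind each fold enrichment were recovered from the deposited fold enrichment and p-value together. In nearly all peaks these fix both the reads stacked at the summit and the background they were set against. Wide peaks had a median of 1120.5 reads at the summit (quartiles 886 and 1388.5, range 160 to 3247), against 306 in other peaks (quartiles 177 and 684, range 88 to 3389). The chromosome medians averaged 1134 ± 99.6 and 310 ± 27.7 reads, higher in wide peaks on 17 of 17 chromosomes. The summit of the median wide peak thus rested on over 1000 reads, so counting error was small beside the spread between wide peaks.

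The background differed far less. Its median was 65.4 in wide peaks and 70.0 in other peaks, and the chromosome medians averaged 66.1 ± 3.28 and 69.5 ± 1.58. The difference of -3.39 ± 3.90 (SD, n = 17 chromosomes) was smaller than its spread between chromosomes. This SD is not the error of the mean difference. The value was lower in wide peaks on 13 chromosomes. Among peaks with a fold enrichment of 5 or more the order turned, with a median of 65.0 in wide peaks and 63.0 in other peaks. The lowest background the list held, 62.8, applied to 372 wide peaks (42.2%, Wilson interval 39.0% to 45.5%) and to 37.0% of the other peaks. Fold enrichment went with the reads (Spearman's rho 0.797 across 882 wide peaks) more than with the background (rho -0.337). Fold enrichment is computed from both, and 42.2% of wide peaks shared the lowest background, so these coefficients only describe the list. Between wide and other peaks the median reads differed far more, 1120.5 against 306, than the median background, 65.4 against 70.0.

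**Figure D3:**
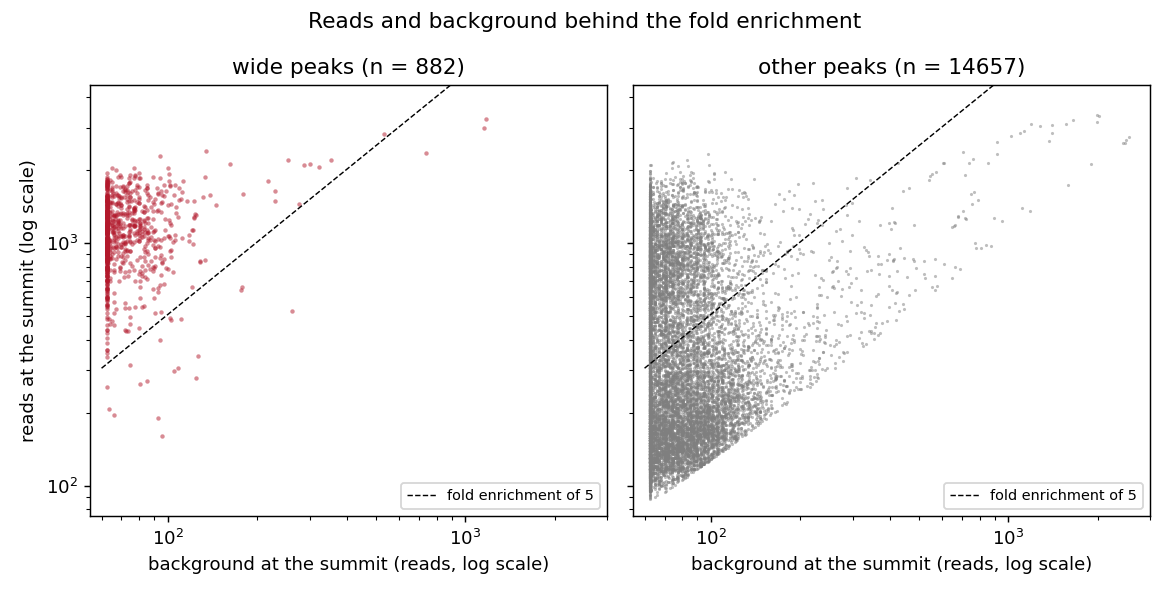
Reads at the summit against background at the summit, both on log scales, for wide peaks (left, red) and other peaks (right, grey); the dashed line marks a fold enrichment of 5. Both groups crowd at a low background, with medians of 65.4 in wide peaks and 70.0 in other peaks. Wide peaks have a median of 1120.5 reads, while other peaks have a median of 306 and reach down to 88 reads.

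A small set of wide peaks was not strong, and it was picked out after its values were seen. Of 882 wide peaks, 22 (2.49%) had a fold enrichment under 5, of which 6 were on chromosome I, 4 each on VII and XVII and 3 on II, with 1 each on III, V, VI, XVI and XX. In 18 of them the background was under 200 and the summit had only 160 to 658 reads (median 302), so the signal was low over the whole width. Another 3 had many reads over a very high background: chrVII:6809010-6811688 with 3247 reads on a background of 1173, chrXVI:2153679-2156385 with 2979 reads on 1153 and chrXX:11992460-11996124 with 2359 reads on 739. These had fold enrichments of 2.76, 2.58 and 3.18, and the first of them had the most reads of all wide peaks. The remaining peak, chrI:25940373-25944498, had 525 reads on a background of 262. A background of at least 500 was as rare in wide peaks, 4 of 882 (0.454%), as in other peaks, 65 of 14657 (0.444%). The fourth such wide peak, chrIX:16071510-16076292, had 2828 reads on a background of 533 and a fold enrichment of 5.29.

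The 10 widest peaks included both strong and weak ones. The widest, chrXVII:8587236-8603270, spanned 16035 bp with a fold enrichment of only 3.20, from 262 reads on a background of 81. It had 6 further peaks within 5 kb, with fold enrichments of 1.79 to 3.35, so the whole stretch around it was weak. The next, chrXX:2180590-2190626, spanned 10037 bp with a fold enrichment of 26.2 from 2046 reads on a background of 77, and its summit lay almost in the middle, 4949 bp from the nearer edge. Its nearest neighbour was itself wide, at 3004 bp with a fold enrichment of 16.8. Peaks of more than 10 kb thus included a weak and a strong case.

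The other 8 were 6484 to 7653 bp wide. The strongest of them was chrXVII:12272315-12279360, 7046 bp wide with a fold enrichment of 27.3, and the weakest chrXVII:12564275-12571289, 7015 bp wide with 3.24 from 208 reads. Between them stood chrVI:2263323-2270287 (6965 bp, fold enrichment 17.7), chrXVI:15360525-15368114 (7590 bp, 14.7), chrXVIII:12409402-12417014 (7613 bp, 12.2), chrXIV:2776963-2784615 (7653 bp, 11.3), chrXV:2881607-2888090 (6484 bp, 10.3) and chrII:2459853-2466803 (6951 bp, 7.80). Chromosome XVII thus supplied 3 of the 10 widest peaks, and the only 2 of them with a fold enrichment under 5.

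The strongest wide peaks were of ordinary width. The highest fold enrichment, 30.9, was at chrXVI:6974811-6977551, 2741 bp wide, with 2041 reads on a background of 65. It was followed by chrXVII:10424066-10427244 with 30.5 over 3179 bp, chrXIII:16091217-16094026 with 29.5 over 2810 bp, chrXII:13512259-13515682 with 29.4 over 3424 bp and chrXV:7723943-7726482 with 28.8 over 2540 bp. All 5 had 1842 to 2041 reads at the summit and a background of 62.8 to 67. The lowest fold enrichment, 1.66, was at chrI:9874191-9876797, 2607 bp wide, with 160 reads on a background of 96, which also had the lowest −log10 q-value of the wide peaks, 7.57. Above it came the chromosome I peak with 525 reads described before, at 2.00, then chrVII:2350624-2353376 at 2.03, chrXVII:12561082-12563751 at 2.21 and the chromosome XVI peak of high background at 2.58.

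The summit, the base with the highest signal, was rarely near the edge of a wide peak. It lay a median of 1036 bp from the nearer edge, against 194 bp in other peaks, which follows from their widths. As a share of the width, the median distance was 33.6% in wide peaks (quartiles 24.9% and 41.7%) and 35.0% in other peaks (25.6% and 43.2%), where the midpoint is 50%. The chromosome medians averaged 33.1% ± 2.17 and 35.0% ± 0.549, lower in wide peaks on 16 of 17 chromosomes. They were nearly equal on chromosomes XII (34.24% and 34.25%) and VIII (34.80% and 34.88%). The difference was -1.86 ± 2.06 percentage points (SD, n = 17 chromosomes), small in size and smaller than its spread between chromosomes. This SD gives that spread and not the error of the mean difference. With weak peaks (fold enrichment under 5) left out of both groups, the medians were closer, 33.7% in wide and 34.2% in other peaks. Next to the limit they were 37.1% at 2500 to 2599 bp and 37.8% at 2400 to 2499 bp. A shift of the summit particular to wide peaks was thus not shown. The central zone, 40% to 50% from the nearer edge, held the summits of 273 wide peaks (31.0%, Wilson interval 28.0% to 34.1%) and of 35.3% of other peaks, and the outermost 10% held those of 22 wide peaks (2.49%) and of 2.00% of other peaks. Neither side was preferred, with 433 wide-peak summits (49.1%) on the left of the midpoint. By width, the median distance ran between 32.3% and 35.0% in the classes up to 4999 bp, with no order, and was 27.5% in the 41 peaks of 5000 bp and more.

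**Figure D4:**
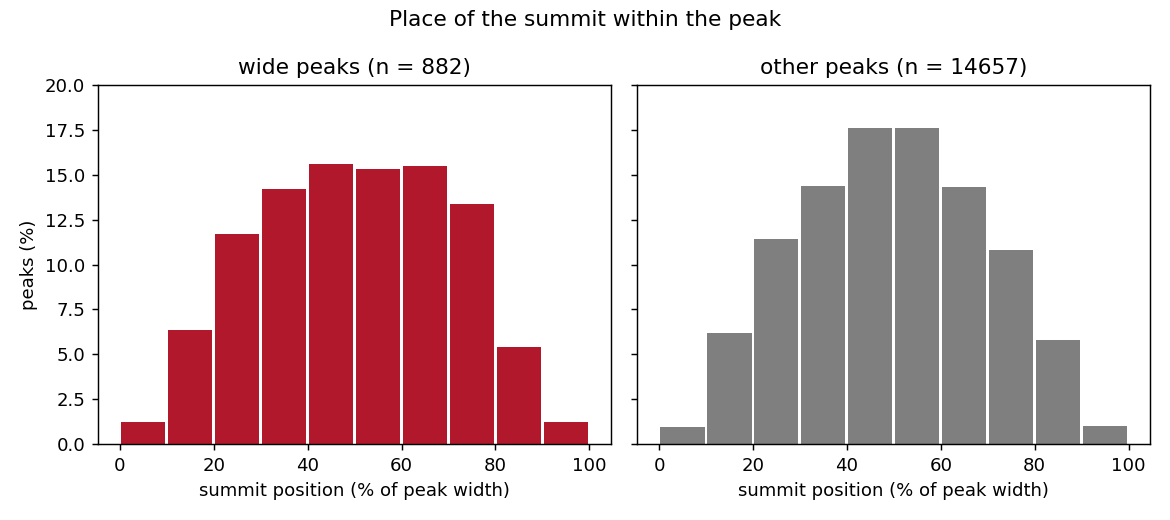
Position of the summit along the peak, in steps of 10% of its width, for wide peaks (left, red) and other peaks (right, grey), as the percent of peaks in each step. Summits of wide peaks spread evenly over the middle, at 15.6%, 15.3% and 15.5% in the steps that span 40% to 70% of the width, while those of other peaks gather at 40% to 60%, with 17.6% in each step.

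Most wide peaks had a close neighbour. The edge-to-edge gap to the nearest peak of any width had a median of 2055.5 bp in wide peaks (quartiles 521 and 6040 bp) and 2603 bp in other peaks (585 and 7139 bp). By chromosome the medians averaged 2282 ± 911 bp and 2658 ± 379 bp. The difference of -376 ± 913 bp (SD, n = 17 chromosomes) was smaller than its spread between chromosomes, which is not the error of the mean difference. The gap was shorter for wide peaks on 11 chromosomes. The order turned when the distance was taken between summits, with 4294 bp at wide peaks and 3635 bp at other peaks, and the edge-to-edge gaps were close with a width limit of 2000 bp, at 2607 bp and 2569 bp. Another peak stood within 10 kb of 763 wide peaks (86.5%, Wilson interval 84.1% to 88.6%) and of 82.5% of other peaks. Gaps of 20 kb or more were less frequent in wide peaks, at 26 (2.95%) against 994 other peaks (6.78%). Within 50 kb there were on average 9.16 further peaks around a wide peak and 8.11 around another peak, with chromosome means of 9.09 ± 0.921 and 8.07 ± 0.501. The difference of 1.03 ± 0.817 (SD, n = 17 chromosomes) was somewhat larger than its spread between chromosomes, again not the error of the mean. More peaks stood around wide peaks on every chromosome but X. The counts within 10 and 50 kb were taken from the edges, so a wider peak searched a longer stretch. With peaks under a fold enrichment of 5 left out, also as neighbours, the gap was longer at wide peaks, 8044 bp against 7101 bp. The mean number within 50 kb was then 3.90 around wide peaks and 3.91 around other peaks. The larger number around wide peaks was thus not seen when only strong peaks were counted. Strong narrower peaks were not compared with wide peaks while weak neighbours were kept.

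The neighbours themselves were mostly weak. The nearest peak to a wide peak had a median fold enrichment of 2.85 and a median width of 676.5 bp, against 4.02 and 801 bp for the nearest peak to another peak. The chromosome medians of that fold enrichment averaged 2.92 ± 0.599 and 4.07 ± 0.400, a difference of -1.15 ± 0.790, and were lower beside wide peaks on 15 of 17 chromosomes. A fold enrichment of at least 5 was found in the nearest peak of 306 wide peaks (34.7%, Wilson interval 31.6% to 37.9%) and of 44.0% of other peaks. The nearest peak was weaker than the wide peak itself in 790 cases (89.6%), as the high fold enrichment of wide peaks favours, and 48.3% of other peaks had a weaker nearest peak. Many of the other peaks were weak themselves, 58.7% with a fold enrichment under 5 against 2.49% of wide peaks. The comparison of neighbours was not repeated among strong peaks, so whether weak neighbours were particular to wide peaks was not tested.

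The fold enrichment of the nearest peak depended on how near it was. Within 500 bp of a wide peak (215 wide peaks), the nearest peak had a median fold enrichment of 2.05, a width of 490 bp and 169 reads, against 3.05, 632 bp and 257 reads beside other peaks. At 500 to 1000 bp its median fold enrichment was 2.41 beside wide peaks and 3.61 beside other peaks, and at 1 to 5 kb it was 3.07 and 4.68. At 5 to 20 kb the values met, 4.74 beside 238 wide peaks and 4.77 beside other peaks. At 20 kb and more the order was the opposite, 5.10 beside 26 wide peaks and 3.57 beside 994 other peaks. The medians were thus clearly lower beside wide peaks only within 5 kb, though at 1 to 5 kb the upper quartile there was 8.83. The fold enrichment of the wide peaks themselves hardly changed with gaps up to 20 kb, with medians of 15.6 under 500 bp and 15.3 at 5 to 20 kb. The other peaks were weaker themselves, with medians of 2.75 to 4.65 in these gap classes. This comparison, too, was not repeated among strong peaks.

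**Figure D5:**
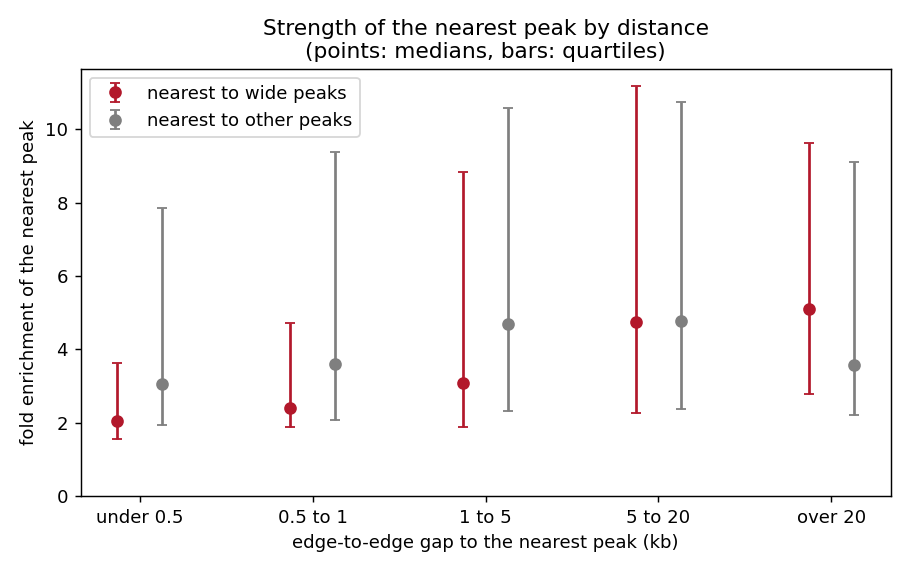
Fold enrichment of the nearest peak by its edge-to-edge distance in kb, beside wide peaks (red) and beside other peaks (grey), as medians with quartile bars. The nearest peak is weaker beside wide peaks at distances under 5 kb, with a median of 2.05 against 3.05 under 0.5 kb, alike at 5 to 20 kb, 4.74 against 4.77, and stronger beside the 26 wide peaks with gaps of 20 kb and more, 5.10 against 3.57.

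From 3500 bp on, wider peaks more often had a close neighbour, though these classes held only 101, 73 and 41 peaks. A peak stood within 1 kb of 34.0% of wide peaks of 2500 to 2999 bp, 33.7% of those of 3000 to 3499 bp, 43.6% at 3500 to 3999 bp, 50.7% at 4000 to 4999 bp and 51.2% of the 41 wider ones. From the narrowest class to the widest, the median gap was 2330.5, 2519, 1963, 968 and 869 bp. Spearman's rho between width and gap was only -0.109 across the 882 wide peaks. These gaps run between edges, so a wider peak reaches closer to its neighbours through its width alone. Distances between summits were not compared by width class, so the rise is not separated from this effect of width.

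Most wide peaks had no wide peak next to them, as their small share of all peaks, 5.68%, favours. The distance between the summits of successive wide peaks had a median of 166286 bp (quartiles 60137 and 393391 bp, 865 distances), and 43 distances were under 10 kb. With the order of all peaks along a chromosome taken into account, 798 wide peaks had no wide peak next to them, 76 formed 38 pairs, and there was 1 run of 3 and 1 run of 5. The nearest peak of a wide peak was itself wide in 42 cases (4.76%, Wilson interval 3.54% to 6.37%), and in 5.62% of the other peaks, which is close to the 5.68% of peaks that were wide at all. The order turned with a width limit of 3500 bp, at 1.86% of wide peaks and 1.39% of other peaks, and among peaks with a fold enrichment of 5 or more, at 14.2% and 12.5%. The 44 pairs of adjacent wide peaks were 175 to 30380 bp apart, with a median of 4028 bp.

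The densest window of 100 kb lay on chromosome XVII, where 6 of the 10 peaks between 12556401 and 12600438 were wide and covered 24218 of 44038 bp. It began with chrXVII:12556401-12560218, 3818 bp wide with a fold enrichment of 24.2 and 1547 reads. Then came 3 weak peaks with gaps of 863, 523 and 498 bp before them: 2670 bp with 2.21, 7015 bp with 3.24 and 3037 bp with 2.93, with 196 to 278 reads. The fifth, chrXVII:12575000-12578903, followed after 175 bp and had a fold enrichment of 15.2 from 1480 reads over 3904 bp. These form the run of 5, in which weak wide peaks fill the space between strong ones. The sixth, chrXVII:12596665-12600438, stood apart with a fold enrichment of 21.3 over 3774 bp, and the 4 other peaks in between had 1.84 to 6.66.

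At the other extreme, 3 wide peaks stood in long stretches without peaks. The nearest peak to chrVI:14759785-14762292, which had a fold enrichment of 8.05, was 112672 bp away on the left, and on the right the next was 214056 bp away. The gaps were 64737 and 57790 bp at chrXVI:14802358-14805336, with a fold enrichment of 12.0, and 79921 and 47784 bp at chrVIII:7525984-7528565, with 9.28. All 3 had a fold enrichment below the median of wide peaks, as did the 26 wide peaks with gaps of 20 kb or more as a group, with a median of 13.2. The longest distance between the summits of successive wide peaks was 3111717 bp, on chromosome XX, where the space between the facing edges of the 2 peaks ran from 12352013 to 15460397. It was not empty: 241 narrower peaks lay there, up to 2427 bp wide, with a median fold enrichment of 4.07, and 45.2% of them reached 5.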

How the data were processed

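The peak list came from a MACS2 run by the authors (shift -100, extension 200 bp) in which the 6 ATACseq libraries were merged, with positions in gasAcu1. Duplicate and mitochondrial reads had been filtered out beforehand, and sequencing depth had been evened between libraries. The aligner and the reads used as the caller's background are not given in the sources used here. The deposited columns were the fold enrichment (a ratio), the −log10 p-value and −log10 q-value, a score (10 times the −log10 q-value, cut to a whole number, in 100% of peaks) and the summit offset. The p-values and q-values of the authors served as values, not as tests of wide against other peaks.

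Chromosome length was the end of the last peak, and coordinates count from 1. Reads and background at the summit were solved from the fold enrichment, (pileup + 1) / (background + 1), and its Poisson p-value, with reads scaled by a common 0.9976. This gave whole reads with a misfit under 0.01 in −log10 p for 880 of 882 wide peaks, and no wide peak had a second solution. A second solution existed for 56 other peaks (0.382%). On 3000 peaks simulated with the same formulas, 100% of reads were recovered. That checks the solving and not whether the deposited values follow these formulas. The depth of each library was not analysed here, and intervals cover counting error only.

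The regions named are the 10 widest, the 5 highest and 5 lowest in fold enrichment, the 3 with the longest gap, the densest window of 100 kb and the 2 nearest peaks on each side of the width limit, ties included. The members, lists and rules were chosen with earlier results of these data known. The alternatives changed the width limit, the end distance, the chromosomes, the peak threshold, the joining of close peaks and the measure of distance; those for reads and background were added after seeing the data. The naked DNA libraries, base composition and genes were not analysed here. Values were computed in Python 3.11.15 with Numba 0.67.0, SciPy 1.17.1, NumPy 2.4.6 and pandas 2.3.3, and plots were drawn with Matplotlib 3.10.9.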

Additional observations from a re-analysis of the deposited data

How the results depend on the processing

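Of 86 alternative values, 55 stayed within the spread over chromosomes or the Wilson interval and 31 did not. With a limit of 2000 bp, wide peaks numbered 7.64 per Mb and made up 12.4% of peaks and 32.2% of accessible bases, and their nearest peak was wide in 10.5%. With 3500 bp these values were 0.855, 1.38%, 5.94% and 1.86% (1.39% for other peaks), the median fold enrichment was 16.5, and 90.7% had a peak within 10 kb. With a q-value of at most 1e-10, 6.57% of peaks were wide, the median gap was 3441 bp, 80.9% had a peak within 10 kb and 7.57 peaks stood within 50 kb. With a fold enrichment of at least 5, 12.5% of peaks and 24.2% of accessible bases were wide, the gap was 8044 bp (other peaks 7101), 58.1% had a peak within 10 kb (60.6%), 3.90 peaks stood within 50 kb (3.91) and the nearest peak was wide in 14.2% (12.5%). Joining peaks less than 500 bp apart gave 1273 wide domains, 399 of them without a wide peak: 5.06 per Mb, 9.32% of domains, 26.6% of bases, 95.2% with a fold enrichment of at least 5, a gap of 3327 bp, 83.4% with a peak within 10 kb, 7.57 within 50 kb and 9.43% with a wide nearest domain. A peak stood within 5 kb of 70.1% and within 20 kb of 97.1% of wide peaks. Between summits the distance to the nearest peak was 4294 bp at wide peaks and 3635 bp at other peaks, the reverse of the order between edges. The edge-to-edge gap with the limit of 2000 bp was 2607 bp against 2569 bp. The background of wide peaks was 65.0 against 63.0 at other peaks among those with a fold enrichment of at least 5. Fold enrichment and reads were higher in wide peaks, and the summit further from the middle, under every alternative run. For the summit the medians were close once weak peaks were left out, 33.7% in wide and 34.2% in other peaks. Wide peaks rest on the caller's merging of signal into intervals, and no value has an error between pools. No paired analysis was possible because all libraries were merged into 1 list, and leaving out a replicate was not run for the same reason. The planned comparison of base composition was not run, since no genome of the build gasAcu1 was used here.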

Other observations

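Joining peaks less than 500 bp apart changed which stretches counted as wide, but added few of the wide peaks to each other. The 882 wide peaks fell into 874 joined domains of at least 2500 bp, and 7 of the 44 gaps between adjacent wide peaks were under 500 bp. The 1273 wide domains had a median width of 3097 bp and a maximum of 23137 bp, and 606 of them consisted of several peaks, up to 6 in a domain. The 399 domains that held no wide peak were made of narrower peaks alone.

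A background of 150 to 500 reads was found at 14 wide peaks, with 525 to 2208 reads at their summits and a median of 1723.5 reads. A background of at least 150 was found at 18 of 882 wide peaks (2.04%, Wilson interval 1.30% to 3.20%). Among other peaks it was found at 505 of 14657 (3.45%, 3.16% to 3.75%). The intervals just overlapped, which is not a test of a difference.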
